A study of Homo sapiens with 18 samples.

Results

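Melanoma cells are held in a melanocytic or a less differentiated state by a small set of transcription factors, and 10 of these were followed here: MITF, SOX10, PAX3, TFAP2A, POU3F2, SOX9, ZEB1, ZEB2, SNAI2 and JUN. They were chosen by name for these roles, but with earlier results of these data known, so the tests below are not of a set fixed in advance. All 10 were found by Ensembl gene ID among the 58051 genes measured. SKMEL2 and SKMEL30 are human melanoma cell lines with a codon change in NRAS. Each line carried a doxycycline-inducible vector for Myc-tagged PPP2R3B, which encodes PR70, a regulatory subunit of the phosphatase PP2A, in stable pools of puromycin-selected cells. Each line gave 3 libraries from uninduced cells, labelled Untreated, 3 after 6 hours of doxycycline and 3 after 18 hours, so that 18 libraries of polyadenylated RNA were compared in 6 groups. The later time is 18 hours in the sample labels and 16 hours in the text of the study. The uninduced cells carried the same vector, and no library came from cells that received doxycycline without it, so an effect of doxycycline and an effect of PPP2R3B cannot be told apart. Nothing in the labels says that replicates were separate cultures, so the p-values measure the spread between these libraries, which may be technical.

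MITF is the basic helix-loop-helix factor that drives pigment genes, survival genes and melanocyte identity. SOX10 and PAX3 act upstream of it at its promoter, and TFAP2A works beside it at pigment genes. POU3F2, also called BRN2, is a POU-domain factor of the neural crest that can repress MITF, and melanoma cells with high POU3F2 and low MITF are known for invasion. SNAI2 and ZEB2 are expressed in normal melanocytes and well-differentiated melanoma, whereas ZEB1, SOX9 and JUN, a subunit of AP-1, are known from the less differentiated state.

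The promoter windows of POU3F2 and of the melanocyte start of MITF are shown because the results turn on the contrast between these genes. They are RefSeq sequences of GRCh38.p14 on the plus strand, each running from 250 bases before the start site to 50 bases after it. POU3F2 lies at chr6:98834574-98839458 and MITF at chr3:69739464-69968332. Capitals mark the palindromic cyclic AMP response element TGACGTCA, at positions -152 to -145 from the MITF start.
POU3F2, chr6:98834324-98834623: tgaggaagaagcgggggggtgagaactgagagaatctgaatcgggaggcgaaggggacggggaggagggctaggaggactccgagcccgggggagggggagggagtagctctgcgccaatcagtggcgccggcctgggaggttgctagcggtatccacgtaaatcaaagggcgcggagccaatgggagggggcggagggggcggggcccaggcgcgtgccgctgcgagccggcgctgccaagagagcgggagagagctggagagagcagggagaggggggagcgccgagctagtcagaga
MITF, chr3:69936342-69936641: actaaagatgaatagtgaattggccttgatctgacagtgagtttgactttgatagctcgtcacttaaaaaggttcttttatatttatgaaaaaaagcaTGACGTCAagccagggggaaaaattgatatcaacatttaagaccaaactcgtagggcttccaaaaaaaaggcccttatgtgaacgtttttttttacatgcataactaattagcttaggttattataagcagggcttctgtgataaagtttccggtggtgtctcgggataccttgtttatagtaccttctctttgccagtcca
TGACGTCA was present in 1.85% of 35116 promoter windows of the same length. Both strands were also searched for the AP-1 site TGANTCA (7.71% of windows), the octamer ATGCAAAT (1.77%), the E-boxes CAGGTG (20.6%), CATGTG (11.1%) and CACGTG (7.26%), the SOX core AACAAT (10.1%) and the TFAP2 site GCCNNNGGC (23.2%). GC content was 68.3% in the POU3F2 window and 37% in the MITF window. The MITF window held none of these other 7, and the POU3F2 window held none of the 8. RefSeq windows were matched for 7 of the 10 genes.

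Library totals ran from 13402645 to 22383470 counts, and a level is given in CPM, the counts of a gene relative to its library total after TMM scaling, so that 3 counts, the limit that a count of 0 allows, were 0.132 to 0.234 CPM by library (counting error only). PPP2R3B, the induced gene, rose from 20.7 ± 3.6 to 425.5 ± 86.3 CPM at 6 hours in SKMEL2 and from 20.9 ± 1.35 to 540.5 ± 22.7 CPM in SKMEL30 (SD, n = 3). All 9 melanocytic markers had counts in every library, with sums of 3617 to 4541 CPM in SKMEL2 and 8002 to 8526 CPM in SKMEL30. Of 6 keratinocyte markers 3 to 5 had counts in each library and KRT1 was at 0 in all 18, and summed markers of fibroblasts stayed at or below 33.7 CPM, of immune cells at or below 73.0 CPM and of endothelium at or below 13.4 CPM. SKMEL30 6 h replicate 3 stood apart from the other 8 libraries of its line, with 803 counts of KRT5, 566 of KRT14 and 93 of DSG3 against at most 118, 76 and 13. Its 6 keratinocyte markers summed to 88.3 CPM against 17.5 to 31.3 CPM in those 8 libraries, and the 6-hour log2 changes of the factors and the ratios of POU3F2 in SKMEL30 are therefore given with and without it. In SKMEL2 these markers summed to 45.3 to 63.2 CPM, with TP63 at 18.8 to 23.1 CPM and KRT10 at 20.6 to 30.1 CPM. KRT5, KRT14 and DSG3 also varied there, with up to 142, 129 and 23 counts in a library. KRT5 in SKMEL2 was at 5.70 ± 2.37 CPM in uninduced cells, 1.40 ± 2.28 at 6 hours and 4.43 ± 3.92 at 18 hours (SD, n = 3). Whether this variation bears on the changes in SKMEL2 was not tested.

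Uninduced SKMEL30 and SKMEL2 held different sets of these factors. Per kilobase of the longest transcript, SOX10 led in SKMEL2 with 184 ± 24.8 CPM per kilobase, ahead of MITF with 85.1 ± 2.38, whereas MITF led in SKMEL30 with 166 ± 3.23, ahead of SOX10 with 133.5 ± 4.78 (SD, n = 3). POU3F2 was at 13 ± 0.64 CPM per kilobase in SKMEL2, overlapping ZEB2 at 15.1 ± 1.59, and at 9.01 ± 0.412 in SKMEL30, where it stood 7th and overlapped no neighbour. In SKMEL2 the libraries of SNAI2, JUN and ZEB1 overlapped their neighbours in the order. Per kilobase of all exons in place of the longest transcript, POU3F2 moved to rank 3 in SKMEL2 and to rank 5 in SKMEL30, so its place depends on the length used.

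**Figure D1:**
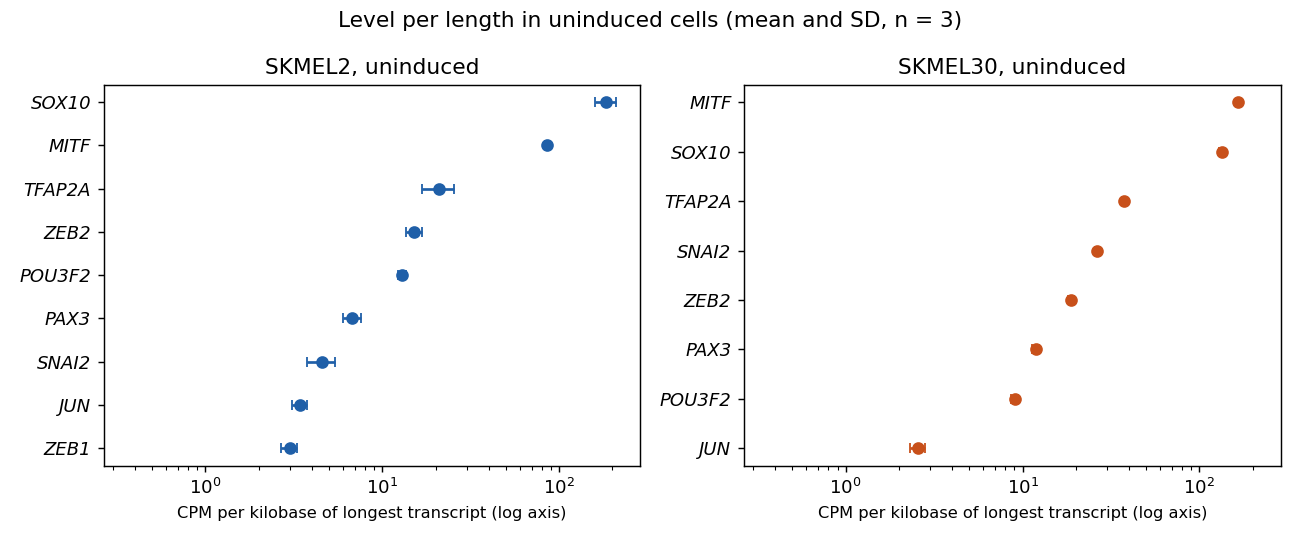
Level per length of the factors in uninduced SKMEL2 (left) and SKMEL30 (right) cells, in CPM per kilobase of longest transcript on a log axis, with points for the mean and bars for the SD of 3 libraries. SOX10 (184) is above MITF (85.1) in SKMEL2 and below it in SKMEL30 (133.5 against 166), and factors with a mean under 0.1 (SOX9 in both lines, ZEB1 in SKMEL30) are not drawn.

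Between the uninduced lines, 9 of the 9 factors tested were called by edgeR's quasi-likelihood test at an adjusted p under 0.05, where 75.9% of 17133 genes were called (35.8% higher in SKMEL30 and 40.1% lower). Of the 9, 5 were higher in SKMEL30 and 4 lower. MITF was 1.95-fold higher in SKMEL30 (log2 0.97 ± 0.05, SE, n = 3 libraries a group, edgeR adjusted p = 2.49e-13), and PAX3 (log2 0.80 ± 0.08) and TFAP2A (log2 0.82 ± 0.11) were also higher there. SOX10 was lower in SKMEL30 (log2 -0.47 ± 0.09), as were POU3F2 (log2 -0.53 ± 0.07) and JUN (log2 -0.42 ± 0.11). SNAI2, a repressor of E-cadherin that normal melanocytes need, was 5.68-fold higher in SKMEL30 (log2 2.51 ± 0.13), and its relative ZEB2 was slightly higher (log2 0.31 ± 0.08).

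ZEB1 separated the lines by its near absence from SKMEL30. Its level in uninduced SKMEL2 was 18.9, 16.7 and 20.5 CPM, whereas the 9 SKMEL30 libraries held 0 to 2 counts each. Over all 9 libraries of each line, 3061 counts stood against 5, a ratio of 569 corrected for library size (95% exact interval 244 to 1750, counting error only). SOX9 was at or near background in both lines, with 0 to 4 counts per library in SKMEL2 and 0 to 5 in SKMEL30 apart from 28 counts in SKMEL30 6 h replicate 3, the library with the keratin counts. No change of SOX9 was therefore tested in either line.

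The gene families around these factors were read in the same way. Of the paralogs of POU3F2, POU3F1 was at 0.348 to 0.943 CPM in SKMEL2 and 10.5 to 13 CPM in SKMEL30, POU3F3 had at most 3 counts in a library and POU3F4 at most 1. TFE3, the relative of MITF that also binds E-boxes of lysosomal genes, was at 29.7 to 36.1 CPM in SKMEL2 and 29.4 to 32.0 CPM in SKMEL30. SOX5 and SOX6, partners of SOX10, were lower in uninduced SKMEL30 (log2 -1.07 ± 0.06 and -2.64 ± 0.09, edgeR adjusted p = 2.8e-12 and 1.34e-15). Of 35 MITF targets tested, 27 were called higher in SKMEL30 and 5 lower, with a median log2 difference of 1.15 against -0.05 over all genes, and TRPM1 (log2 8.69 ± 0.14) and SLC45A2 (log2 3.65 ± 0.05), a melanosome transporter, were among the 5 with the smallest p. Among 11 SOX10 targets 3 were called higher and 6 lower, and ERBB3, the neuregulin receptor, was lower in SKMEL30 (log2 -2.05 ± 0.05). Of all genes 75.9% were called between the lines, 35.8% higher and 40.1% lower, so the number of SOX10 targets called is near that share. The SOX10 list holds MITF itself, and TYR and DCT, which are also on the MITF list.

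**Figure D2:**
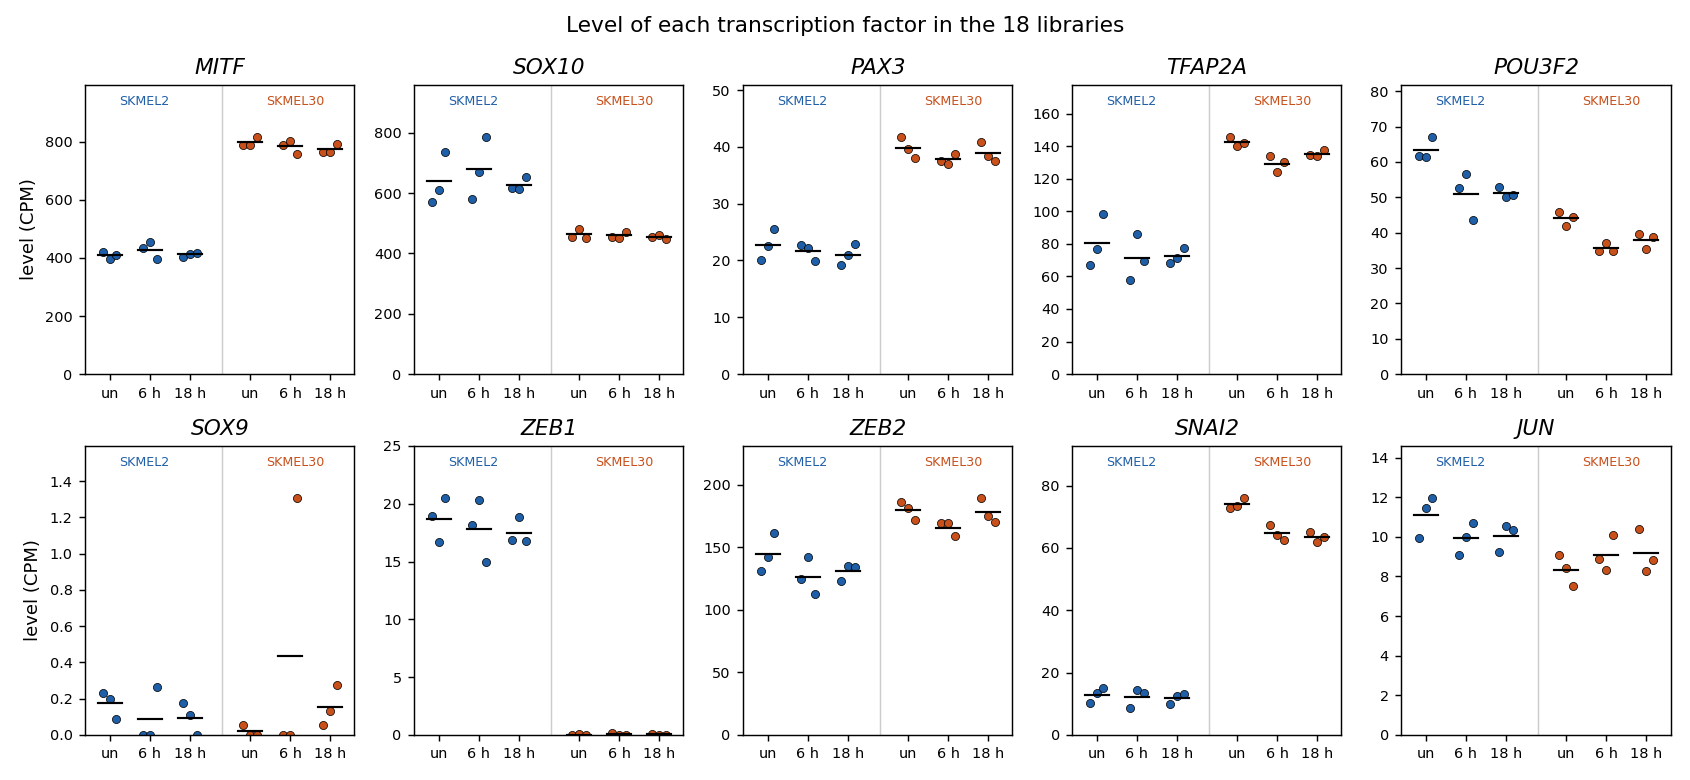
Level of each factor in CPM (linear axes from 0) in the 18 libraries, with SKMEL2 in blue and SKMEL30 in orange, un for uninduced, and 6 h and 18 h for the time of induction, where points are libraries and bars are means of 3. POU3F2 lies lower in all 12 induced libraries than in the 3 uninduced libraries of its line, and the single high SOX9 point is SKMEL30 6 h replicate 3 with 28 counts.

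The design asks which of these factors moved when PPP2R3B was induced. POU3F2 was lower at both times in both lines, by 13.6% to 19.4%, and MITF differed from uninduced cells by at most 5.08%. Both times of a line were set against the same 3 uninduced libraries, so they are not independent comparisons. In SKMEL2, 0 of 9 factors tested were called at 6 or at 18 hours, with 0.0124% of 16120 genes called at each time. At an unadjusted p under 0.05, 2 of the 9 passed at 6 hours (POU3F2 and ZEB2) and 1 at 18 hours (POU3F2), against 3.37% and 4.65% of all genes. In SKMEL30, 1 of 8 was called at 6 hours (POU3F2, lower) and 1 of 8 at 18 hours (SNAI2, lower), where 0.206% and 0.293% of 15026 genes were called (0.113% and 0.12% lower). In bulk libraries, fewer cells that express a factor and less of its RNA per cell cannot be told apart.

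In SKMEL2, POU3F2 was at 61.8, 61.4 and 67.0 CPM in uninduced cells, at 52.6, 56.6 and 43.7 CPM after 6 hours and at 52.9, 50.2 and 50.5 CPM after 18 hours. In SKMEL30 it was at 45.8, 41.9 and 44.4 CPM, then at 34.9, 37 and 34.9 CPM, then at 39.5, 35.4 and 38.9 CPM. All 12 induced libraries were below the 3 uninduced libraries of their own line. All 6 induced libraries were below in this way for 1.21% of genes in SKMEL2 and 2.24% in SKMEL30, and for 0.0994% of 14079 genes in both lines. The lowest SKMEL2 library was 6 h replicate 3.

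By edgeR, the POU3F2 difference in SKMEL2 was log2 -0.31 ± 0.08 (SE, 95% interval -0.49 to -0.13) at 6 hours and -0.31 ± 0.08 (-0.49 to -0.13) at 18 hours, and neither passed the adjustment over all genes (edgeR adjusted p = 0.989 and 0.848). In SKMEL30 it fell at 6 hours by 0.31 ± 0.05 on the log2 scale (edgeR adjusted p = 0.0337), ranking 25th of 15026 genes by p. The 18-hour difference was -0.21 ± 0.05 (-0.33 to -0.10, edgeR adjusted p = 0.164). The 6-hour call was not stable to single libraries: it was lost in 4 of 6 fits that left out a library, with log2 changes of -0.34 to -0.27. Without the keratin-rich replicate 3 the value was -0.29 (edgeR adjusted p = 0.20).

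A comparison of the 12 induced with the 6 uninduced libraries of both lines in a single fit was added after the values above were seen. POU3F2 was lower there by 17.9% (log2 -0.28 ± 0.05, 95% interval -0.38 to -0.19, edgeR adjusted p = 0.00784), ranking 11th of 17133 genes, of which 0.134% were called and 0.0642% called lower. It was called in each of the 18 fits that left out a library, with log2 changes of -0.30 to -0.26 and adjusted p up to 0.0465, and at -0.28 (edgeR adjusted p = 0.0182) without the keratin-rich library. POU3F2 was the only one of the 9 factors tested to be called. The change did not differ detectably between the lines: the difference of the 6-hour changes was log2 0.01 (95% interval -0.21 to 0.23) and that of the 18-hour changes 0.10 (-0.12 to 0.32), intervals that leave room for a difference of either sign.

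**Figure D3:**
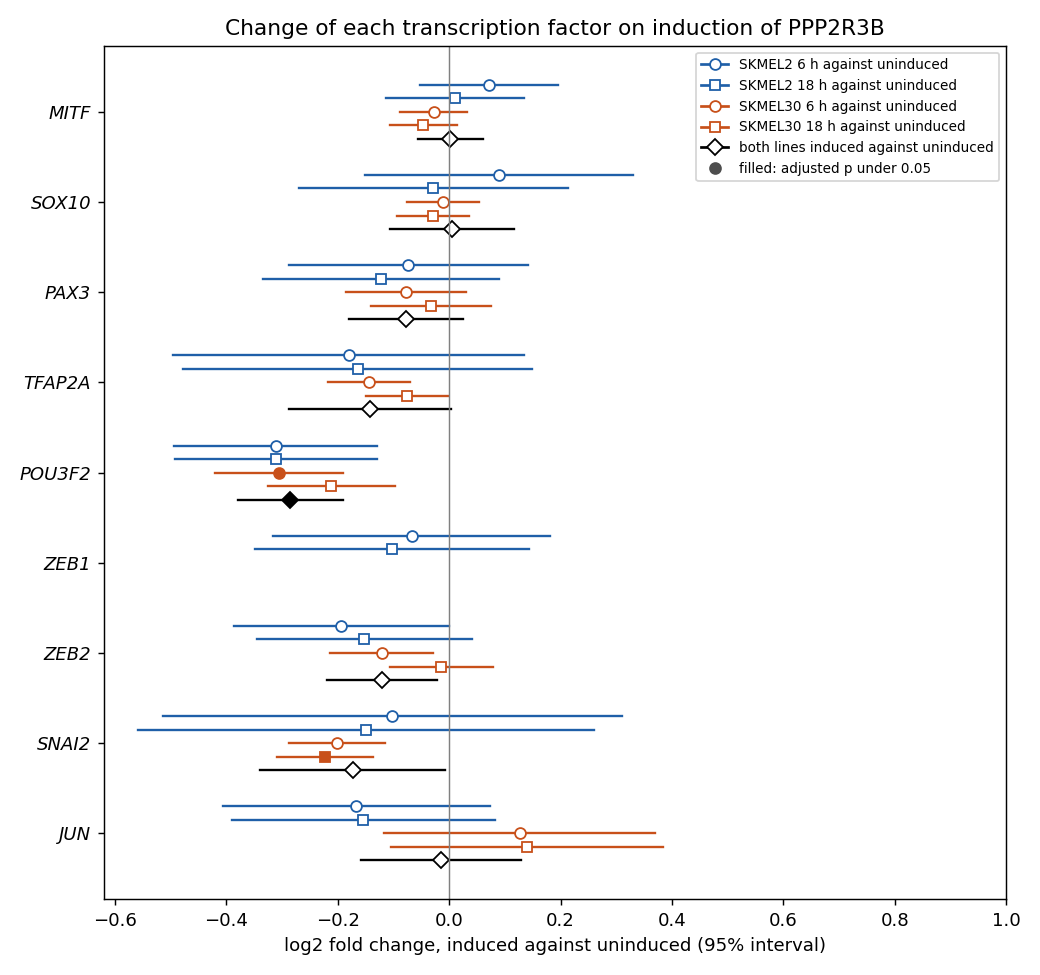
Log2 fold change of each factor, induced against uninduced, with 95% intervals as lines, for SKMEL2 (blue) and SKMEL30 (orange) at 6 h (circles) and 18 h (squares), and for both lines together (black diamonds), where filled symbols passed an edgeR adjusted p under 0.05. POU3F2 lies left of 0 in all 5 comparisons and MITF has intervals that hold 0 in all 5, and SOX9 and the SKMEL30 and combined values of ZEB1 are not drawn because their counts were too low. The 5 comparisons are not independent: both times of a line share its uninduced libraries, and the combined comparison reuses all libraries.

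MITF was at 419, 397 and 409 CPM in uninduced SKMEL2, at 435.5, 453 and 396 CPM at 6 hours and at 404, 413 and 418 CPM at 18 hours. In SKMEL30 it was at 789, 789 and 816 CPM, then at 788, 803.5 and 759 CPM, then at 764, 764 and 792 CPM. The induced libraries overlapped the uninduced ones at both times in both lines. The intervals bounded its change to between -0.05 and 0.20 at 6 hours and -0.11 and 0.13 at 18 hours in SKMEL2, and to between -0.09 and 0.03 and between -0.11 and 0.01 in SKMEL30, on the log2 scale. Without the keratin-rich library the 6-hour value in SKMEL30 was -0.01 (edgeR adjusted p = 0.975). Over both lines the change was 0.00 ± 0.03 (-0.06 to 0.06), so a fall of the size seen for POU3F2 lies outside these intervals.

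SOX10, which keeps melanoma cells in the melanocytic lineage, was at 571, 611.5 and 736 CPM in uninduced SKMEL2, at 579, 670 and 785.5 CPM at 6 hours and at 617, 612 and 654.5 CPM at 18 hours. In SKMEL30 its group means were 463 ± 16.6, 460 ± 10.5 and 454 ± 6.84 CPM (SD, n = 3). Its groups overlapped in every comparison, with log2 changes of 0.09 ± 0.11 and -0.03 ± 0.11 in SKMEL2 and -0.01 ± 0.03 (-0.03 without the keratin-rich library) and -0.03 ± 0.03 in SKMEL30. After removal of trends with GC content and length, the 6-hour values had the opposite sign in both lines, and the direction of SOX10 is not set by these data.

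PAX3, the paired-box factor that acts on the MITF promoter, had group means of 22.8 ± 2.69, 21.6 ± 1.47 and 21.0 ± 1.85 CPM in SKMEL2 and 39.8 ± 1.81, 37.8 ± 0.910 and 39.0 ± 1.70 CPM in SKMEL30 for uninduced, 6-hour and 18-hour cells (SD, n = 3). None of its 4 changes, from log2 -0.12 to -0.03, passed the test, nor did the 6-hour value in SKMEL30 without the keratin-rich library (-0.10, edgeR adjusted p = 0.701). TFAP2A was at 146, 140 and 142 CPM in uninduced SKMEL30, at 134, 124 and 130 CPM at 6 hours and at 134, 134 and 138 CPM at 18 hours. All 6 induced libraries were thus below the uninduced ones, as for 2.24% of genes in SKMEL30. Its log2 changes there were -0.14 ± 0.03 (edgeR adjusted p = 0.225; -0.15 and 0.321 without the keratin-rich library) and -0.08 ± 0.03 (edgeR adjusted p = 0.53). In SKMEL2 the groups overlapped, with means of 80.7 ± 16.2, 71.2 ± 14.1 and 72.3 ± 4.64 CPM.

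SNAI2 in SKMEL30 was at 72.7, 73.6 and 76.0 CPM in uninduced cells, at 67.3, 64.2 and 62.5 CPM after 6 hours and at 65.1, 61.8 and 63.4 CPM after 18 hours. All 6 induced libraries were below the uninduced ones, as for 2.24% of genes in SKMEL30. The fall at 18 hours passed the test (log2 -0.22 ± 0.04, edgeR adjusted p = 0.0344), whereas the 6-hour difference did not (log2 -0.20 ± 0.04, edgeR adjusted p = 0.0806). Without the keratin-rich library the 6-hour value was -0.18 (edgeR adjusted p = 0.308). The 18-hour call was lost in each of the 6 fits without a library, with log2 changes of -0.24 to -0.20, and with the replicate number as a block (edgeR adjusted p = 0.0557). In SKMEL2, where SNAI2 was at 8.48 to 15 CPM over all 9 libraries, the groups overlapped, with log2 changes of -0.10 ± 0.19 and -0.15 ± 0.19.

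ZEB2, the zinc finger repressor of differentiated melanocytes, was at 186, 181.5 and 172 CPM in uninduced SKMEL30 and at 169, 169 and 159 CPM after 6 hours, all lower, as for 5.84% of genes, and at 190, 175 and 170 CPM after 18 hours, which overlapped. The 6-hour difference of log2 -0.12 ± 0.04 did not pass (edgeR adjusted p = 0.624; -0.09 and 0.671 without the keratin-rich library). In SKMEL2 the values were -0.19 ± 0.09 and -0.15 ± 0.09, with overlapping groups. ZEB1 in SKMEL2 had means of 18.7, 17.8 and 17.5 CPM and log2 changes of -0.07 ± 0.11 and -0.10 ± 0.11.

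JUN, which growth factor and stress signals induce, was low, with 7.54 to 12 CPM over the 18 libraries. Its values in SKMEL2 were log2 -0.17 ± 0.11 and -0.15 ± 0.11 and in SKMEL30 0.13 ± 0.11 and 0.14 ± 0.11, and the groups overlapped in each comparison. The SKMEL30 values rested on single libraries: they were 0.03 at 6 hours without the keratin-rich replicate 3 and 0.04 at 18 hours without 18 h replicate 1, over leave-one-out ranges of 0.03 to 0.20 and 0.04 to 0.20. The difference between the lines did not pass the test at 6 hours (log2 0.30 ± 0.16, edgeR adjusted p = 0.902; 0.21 and 0.898 without the keratin-rich library) or at 18 hours (0.29 ± 0.16, edgeR adjusted p = 0.895). At 6 hours 0 of 17133 genes differed between the lines by edgeR, with 842 (4.91%) at an unadjusted p under 0.05 and 0 by DESeq2, and at 18 hours 0.00584% differed.

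Set against MITF within each library, POU3F2 had 14.7, 15.5 and 16.4 counts per 100 counts of MITF in uninduced SKMEL2, 12.1, 12.5 and 11 after 6 hours and 13.1, 12.1 and 12.1 after 18 hours. In SKMEL30 it had 5.81, 5.31 and 5.44, then 4.44, 4.61 and 4.6, then 5.18, 4.64 and 4.92. The induced and uninduced libraries did not overlap in either line. The log2 ratio was lower by 0.35 in SKMEL2 and by 0.22 in SKMEL30, and each gave p = 0.0119 in a two-sided exact permutation test of 6 against 3 libraries, the smallest that its 84 splits can give (0.0317 adjusted over 8 ratios).

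The ratio of POU3F2 to the other lineage factors was tested in the same way. Against PAX3 it was lower in SKMEL30 by a log2 difference of -0.21 (exact permutation p = 0.0119, adjusted 0.0317, below in 6 of 6 induced libraries) and had a difference of -0.22 in SKMEL2 (exact permutation p = 0.0595, adjusted 0.068, 5 of 6). Against SOX10 the differences were -0.35 in SKMEL2 (exact permutation p = 0.0476, adjusted 0.0635, 6 of 6) and -0.24 in SKMEL30 (exact permutation p = 0.0357, adjusted 0.0571, 5 of 6). Against TFAP2A they were -0.15 in SKMEL2 (exact permutation p = 0.298, 3 of 6) and -0.15 in SKMEL30 (exact permutation p = 0.0238, adjusted 0.0476, 6 of 6). Thus the ratio to MITF passed in both lines, those to PAX3 and TFAP2A passed in SKMEL30, and that to SOX10 did not pass in either. All these ratios, those to MITF included, share the POU3F2 counts already seen to be lower in induced libraries. They are therefore not separate evidence for its fall. Without the keratin-rich library the SKMEL30 differences were -0.22 against MITF (exact permutation p = 0.0357, unadjusted, 5 of 5 induced libraries below), -0.22 against SOX10 (0.0536, 4 of 5), -0.19 against PAX3 (0.0179, 5 of 5) and -0.14 against TFAP2A (0.0536, 5 of 5). TFAP2A thus failed even before adjustment. The p-values without this library were not adjusted over the ratios, so no SKMEL30 ratio can be said to pass the adjusted rule without it.

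**Figure D4:**
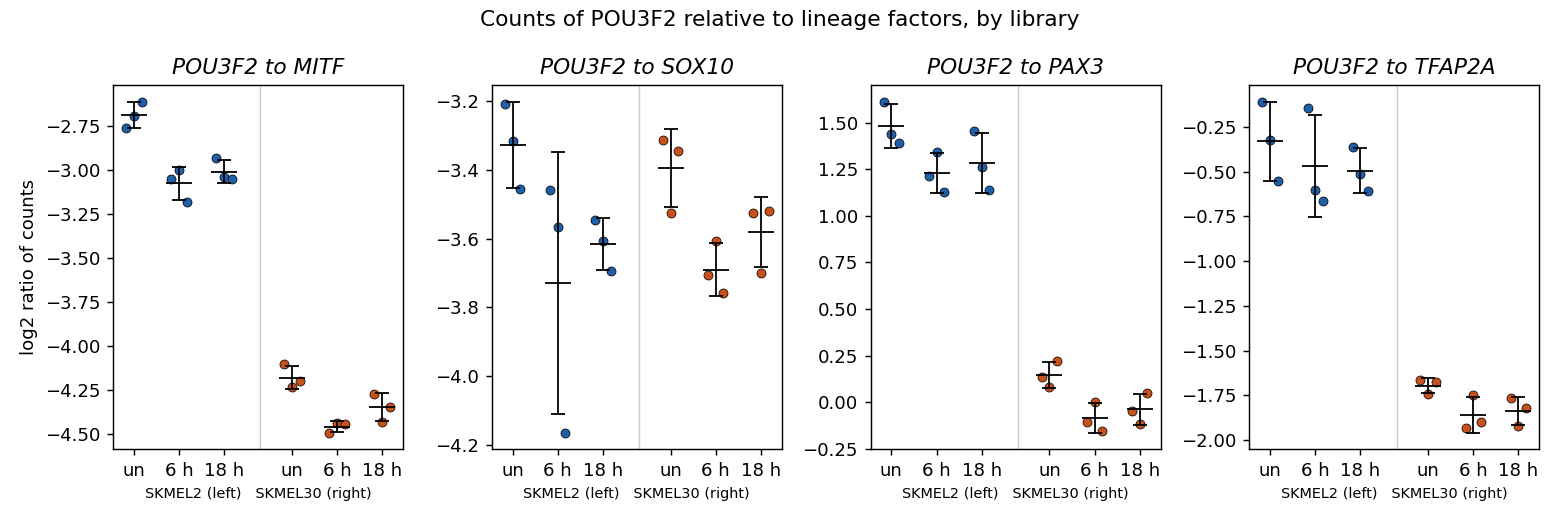
Log2 ratio of POU3F2 counts to the counts of MITF, SOX10, PAX3 and TFAP2A in each library, for SKMEL2 (blue) and SKMEL30 (orange), un for uninduced, with points for libraries and bars for the mean and SD of 3; the vertical axes differ and do not start at 0. The mean ratio to MITF was lower in induced than in uninduced cells by 0.35 in SKMEL2 and by 0.22 in SKMEL30, with no overlap, whereas the groups overlap for TFAP2A in SKMEL2.

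Genes known downstream of these factors were read from lists of known targets and state genes, without a test of the lists. Of 4 genes reported to respond to POU3F2 (NFIB, EZH2, KITLG and PDE5A, of which PDE5A is known to be repressed by it), 0 were called in any of the 4 comparisons by edgeR, with medians of log2 -0.15 and -0.10 in SKMEL2 and -0.05 and -0.06 in SKMEL30, where the medians of all genes were all 0.00. The SKMEL2 6-hour median ran from -0.22 to -0.06 when single libraries were left out, with -0.06 reached without 6 h replicate 3 and -0.22 without 6 h replicate 2, and was -0.07 for genes with at least 10 counts in every library. PDE5A had log2 values of -0.49 ± 0.43 and -0.03 ± 0.41 in SKMEL2 and -0.18 ± 0.09 and -0.07 ± 0.09 in SKMEL30. These lie below 0, whereas less of a repressor would go with a rise. The median of the list therefore has no single expected direction. NFIB, a nuclear factor I family member, had log2 values of -0.22 and -0.08 in SKMEL2 and -0.06 and 0.00 in SKMEL30. EZH2 had log2 values of -0.08 and -0.15 in SKMEL2 and -0.05 and -0.06 in SKMEL30.

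Of 35 MITF targets tested, 0 were called at either time in SKMEL2, where 0.0124% of all genes were. In SKMEL30, where 0.113% and 0.12% of all genes were called lower at 6 and 18 hours, 1 target was called lower at 6 hours and 1 at 18 hours. These were TBX2, a T-box factor of the melanocyte lineage, from 118 ± 4.2 to 99.7 ± 4.06 CPM at 6 hours (log2 -0.25 ± 0.04, edgeR adjusted p = 0.016), and SLC45A2, from 268 ± 5.44 to 240 ± 3.40 CPM at 18 hours (log2 -0.16 ± 0.03, edgeR adjusted p = 0.00912). Each call was kept in 3 of 6 fits without a library, and TBX2 had -0.26 (edgeR adjusted p = 0.0749) without the keratin-rich one. The medians of the list were log2 0.03 and 0.09 in SKMEL2 and 0.01 and 0.00 in SKMEL30. The most abundant target, PMEL of the melanosome fibrils, had log2 changes of 0.12 and 0.27 in SKMEL2 and -0.04 and -0.01 in SKMEL30, none called. Of 11 SOX10 targets tested, 0 were called in any of the 4 comparisons, with ERBB3 between log2 0.01 and 0.12.

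Of the genes of the low-MITF state, 2 of 21 tested in SKMEL30 were called lower at 6 hours and 2 at 18 hours, CCN1 and THBS1 at each time. Of all genes in SKMEL30, 0.113% and 0.12% were called lower. CCN1, a matricellular ligand of integrins, fell from 29.5 ± 0.626 to 17 ± 1.88 CPM at 6 hours (log2 -0.79 ± 0.07, edgeR adjusted p = 6.93e-05) and was at 21.2 ± 1.43 CPM at 18 hours (log2 -0.48 ± 0.07, edgeR adjusted p = 0.00811). THBS1, thrombospondin, fell from 248 ± 8.84 to 199 ± 9.26 and 199.5 ± 6.79 CPM (log2 -0.32 ± 0.04 and -0.31 ± 0.04, edgeR adjusted p = 0.000928 and 0.00103). Without the keratin-rich library the 6-hour values were -0.72 (edgeR adjusted p = 0.000697) and -0.29 (0.00828), while the 18-hour call of CCN1 was lost in 3 of 6 fits without a library.

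CDH1, E-cadherin, is on the same list although the low-MITF state is known to lose it, and it rose at 18 hours in SKMEL30 from 103 ± 1.68 to 126 ± 1.92 CPM (log2 0.29 ± 0.04, edgeR adjusted p = 0.00341). SNAI2, a known repressor of CDH1, was lower in the same libraries (log2 -0.22), a call lost in each of the 6 fits without a library. At 6 hours in SKMEL30, SNAI2 had log2 -0.20 and CDH1 0.03 ± 0.04. In uninduced cells CDH1 was at 103 ± 1.68 CPM in SKMEL30 and 3.86 ± 0.128 CPM in SKMEL2, and SNAI2 at 74.1 ± 1.76 and 12.9 ± 2.34 CPM. Any relation between SNAI2 and CDH1 was not tested. In SKMEL2, 0 of 22 genes of the low-MITF list were called, and 15 of 22 had a value below 0 at 6 hours and 20 of 22 at 18 hours, where 49.1% and 50% of all genes did. The genes share the same libraries and can vary together, so these are not counts of independent genes and were not tested. In SKMEL30 the values of the list lay on both sides of 0 in similar numbers at each time. The medians were log2 -0.07 and -0.21 in SKMEL2 and 0.00 and -0.04 in SKMEL30.

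Of the other factors, 0 of 12 AP-1 genes tested in SKMEL2 and 0 of 11 in SKMEL30 were called at either time. Of the MITF, SOX, TFAP2, ZEB and SNAI relatives, none was called in the 4 comparisons of induced with uninduced cells, and TFE3 had log2 changes of 0.07 and 0.01 in SKMEL2 and -0.02 and 0.03 in SKMEL30. Of 30 other melanoma transcription factors tested in SKMEL2, 0 were called, and of 31 in SKMEL30 TBX2 alone was called at 6 hours and 0 at 18 hours.

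Across the 18 libraries, after each line was centred on its own mean, genes among the most like POU3F2 in log2 CPM were RHOBTB3 (Pearson r = 0.88) and NAV3 (0.87), and the least like was FAM168B (-0.87), among 9699 genes with a mean of at least 10 CPM. Of the factors, ZEB2 was most like POU3F2 (r = 0.74), PAX3 and TFAP2A each had r = 0.53, and SNAI2 had 0.31, MITF 0.24 and SOX10 -0.20. Within SKMEL30 alone SNAI2 had r = 0.831, TFAP2A 0.80, ZEB2 0.611 and MITF 0.53, against 0.156, 0.51, 0.815 and 0.11 within SKMEL2. The genes most like MITF were PPP1R2 (0.78), LRIF1 (0.77) and PDE4D (0.77), and the least like was IL17RA (-0.80). These values are a description, since the libraries share lines, groups and scaling.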

How the data were processed

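Polyadenylated RNA of SKMEL2 and SKMEL30 (3 libraries in each of 6 groups) was prepared by the authors with the KAPA mRNA HyperPrep kit and sequenced as paired reads of 43 bases. The values the authors deposited are RSEM expected counts per gene on GRCh38 with Ensembl gene IDs, not scaled. The submitters' processing notes name Trimmomatic 0.36, cutadapt 1.5, STAR 2.2.2a, SAMtools 1.8 and RSEM 1.3.0, whereas the methods of the study give other versions of cutadapt and STAR. RSEM splits a read with several matches between genes, and 12.3% of the values were not whole. Columns were matched to samples by their labels, with 0 left over, and 95.8% of the 58051 IDs were matched to a symbol.

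Counts were rounded and analysed in R 4.3.3 with edgeR 4.0.16 (filterByExpr, TMM, glmQLFit and glmQLFTest). Each line was fitted on its own 9 libraries, and comparisons between lines used all 18. Calls were made at an adjusted p (Benjamini-Hochberg, over every gene tested) under 0.05. An SE is the log2 change divided by the square root of F. Ratios of counts, with a pseudocount of 0.5, were compared by two-sided exact permutation tests. Lengths are those of the longest transcript in a GRCh37 annotation, matched by gene ID. The steps were tested on simulated data. No 2 replicates were alike within counting noise (chi-square over its degrees of freedom 2.08 to 18.6).

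The factors and gene lists were chosen with earlier results of these data known. Genes named are the 10 factors, called members of the lists (up to 5 by p) and otherwise the 3 most abundant, PPP2R3B, and the 3 most and 1 least like POU3F2 and MITF, of which 1 is not reported here. The keratinocyte genes were named after their counts were seen. Alternatives were DESeq2 1.42.0, RLE factors, no filter, at least 10 counts in every library, the replicate number as a block, the 6 libraries compared, all 18 libraries, other pseudocounts, and each library left out. Added after the data were seen were a correction for GC content and length, the comparison over both lines, the left-out libraries for genes of the lists, and the ratios without SKMEL30 6 h replicate 3.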

Additional observations from a re-analysis of the deposited data

How the results depend on the processing

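The number of genes called moved with the settings, and the causes were not tested. With DESeq2, 8 and 11 genes were called in SKMEL2 at 6 and 18 hours in place of 2 and 2, 71 in SKMEL30 at 18 hours in place of 44, 3 between the lines at 18 hours in place of 1, and 57 over both lines in place of 23. Without a filter on low counts, 158 and 168 genes were called in SKMEL2, 321 and 359 in SKMEL30 in place of 31 and 44, 237 and 216 between the lines, and 225 over both lines. In the same fits 1 and 1 of the factors were called in SKMEL2, 5 and 2 in SKMEL30, 1 between the lines at 6 hours, and 2 over both lines. In those fits POU3F2 had an adjusted p of 0.0315 and 0.0434 in SKMEL2. With all 18 libraries in a single fit, 6 and 7 genes were called in SKMEL2 and 5 and 9 in SKMEL30, with 0 factors called in SKMEL30 at either time, and POU3F2 at 6 hours had an adjusted p of 0.568. With only the 6 libraries compared, 9 genes were called in SKMEL2 at 18 hours and 0 factors in SKMEL30 at 6 hours (POU3F2 adjusted p = 0.0549). With GC content and length corrected, 77 genes were called in SKMEL30 at 18 hours and 44 over both lines, 2 factors were called in SKMEL30 at 6 hours, and SOX10 at 6 hours had log2 changes of -0.0096 in SKMEL2 and 0.029 in SKMEL30. With RLE factors, the line difference of POU3F2 at 6 hours (-2.07e-05) and the change of MITF over both lines (-6.27e-07) passed below 0.

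Replicate numbers showed no strong pairing of the samples: correlations of same-numbered deviations passed 0.1 in 3 of 9 pairs in SKMEL2 and in 1 of 9 in SKMEL30. In SKMEL2, however, replicate 1 was the lowest library of each group for SNAI2, JUN and TFAP2A, though not for the other factors tested there. The labels do not say whether same-numbered libraries share a batch. With a replicate block, 7 genes were called in SKMEL2 at 18 hours and 0 factors in SKMEL30 at 18 hours (SNAI2 adjusted p = 0.0557), and POU3F2 had 0.0388 in SKMEL30 at 6 hours.

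When each library was left out, 2 to 5 and 2 to 2 genes were called in SKMEL2, 16 to 33 and 25 to 30 in SKMEL30, 0 to 1 and 1 to 2 between the lines and 12 to 50 over both lines, with the 50 reached without SKMEL2 6 h replicate 3. The factors called in SKMEL30 numbered 0 to 1 at 6 hours and 0 to 0 at 18 hours. Log2 changes that crossed 0 in SKMEL2 at 6 hours were those of SOX10 (-0.040 to 0.20), PAX3 (-0.15 to 0.016), ZEB1 (-0.17 to 0.033) and SNAI2 (-0.24 to 0.11). At 18 hours they were those of MITF (-0.012 to 0.034), SOX10 (-0.10 to 0.082) and TFAP2A (-0.28 to 0.0026). In SKMEL30 they were SOX10 at 6 hours (-0.032 to 0.019) and at 18 hours (-0.045 to 0.0015), PAX3 (-0.069 to 0.0030) and ZEB2 (-0.061 to 0.021) at 18 hours. Others were the line difference of POU3F2 at 6 hours (-0.085 to 0.078) and MITF over both lines (-0.0081 to 0.013). The ratio of POU3F2 to MITF was lower in every alternative; with 6-hour or 18-hour libraries alone its exact permutation p was 0.1, the smallest that 3 against 3 allows.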
